A study of Mus musculus with 9 samples.

Results

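Muscle that carried the full-length human dystrophin gene (hDMD) was compared with wild-type muscle, whatever the state of the mouse's own genes. The comparison took every array whose sample title contains hDMD, which gave 4 arrays, and both wild-type arrays, 6 of the 9 arrays in the series. The 4 carriers were 1 hDMD mouse, 2 hDMD mdx mice, whose mouse Dmd gene is mutated, and 1 hDMD mdx utrn-/- mouse, which lacks utrophin as well. The other 3 arrays, from 2 mdx mice and 1 mdx utrn-/- mouse, lack full-length dystrophin and are called deficient here. Each array was hybridised with RNA of the gastrocnemius, a calf muscle, from 1 mouse.

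The wild-type mice were a 7-week-old female (wild-type 1) and a 7-week-old male (wild-type 2) of a C57Bl/DBA2/129OLA-Ev background. The carriers were all male, aged 11 weeks (hDMD), 24 weeks (hDMD mdx 1), 10 weeks (hDMD mdx 2) and 9 weeks (hDMD mdx utrn-/-). The deficient mice were males of 15 weeks (mdx 1), 13 weeks (mdx 2) and 5 weeks (mdx utrn-/-). No background strain is named for the carriers or the deficient mice, and neither are the promoter and insertion site of the human gene. Every carrier was older than both wild-type mice, so age and carriage of the gene cannot be told apart. Strain and the pooling of 3 genotypes as carriers limit the comparison in the same way. Sex limits it too, because wild-type 2 is the only wild-type male to set against the male carriers.

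Dystrophin joins the actin cytoskeleton of a muscle fibre, through a complex of membrane proteins, to the laminin of the surrounding matrix, and utrophin is a related protein that can take part in the same complex. Without dystrophin, fibres tear, die and regenerate, and macrophages, fibroblasts and collagen accumulate between them. The genes looked at here are therefore those of matrix, of inflammatory cells, of fat cells, of regenerating fibres and of the contractile and metabolic apparatus of mature fibres.

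Levels are probe set intensities after quantile normalisation, as log2(intensity + 16), where 4 is the floor, and a gene with several probe sets is given by the brightest. Wild-type values are listed as wild-type 1 and 2, carrier values as hDMD, hDMD mdx 1, hDMD mdx 2 and hDMD mdx utrn-/-, and deficient values as mdx 1, mdx 2 and mdx utrn-/-; where only "against" stands between values, wild-type comes first. Errors of differences are SE, and a negative difference means a lower mean in the carriers. The 4 carriers shared a high level of skeletal muscle transcripts with wild-type: all 6 muscle markers were well above the floor on every array, and their summed level was 13.56 to 13.88 in the carriers and 13.67 and 13.78 in wild-type. The Dmd probe set lay between 4 and 4.95 and the Utrn probe set between 4.15 and 6.16 over the 9 arrays, and neither followed the genotype labels. Spike-in controls were 6.18 times brighter on wild-type 1, hDMD mdx 1 and mdx 2 than on the 6 dim arrays. The labels give no batch for this. Actin 3′ to 5′ ratios were 1.20 to 1.87 on the bright and 0.669 to 0.908 on the dim arrays. Differences are therefore also given within the bright arrays (hDMD mdx 1 minus wild-type 1) and within the dim ones (the other 3 carriers minus wild-type 2). The bright pair is a male of 24 weeks and the female of 7 weeks, while the dim comparison holds males alone. Brightness and sex therefore cannot be told apart in this split or between the 2 wild-type arrays.

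No probe set distinguished the carriers from wild-type at an adjusted p under 0.05 in limma. The count was 0 of 7453 (0%), the smallest adjusted p was 0.979, and 192 probe sets had an unadjusted p under 0.05, where 5% of 7453 is 373. This last count rested on single mice and on the model. It was 794 without hDMD mdx 1, 446 without wild-type 1, 217 without wild-type 2 and 116 to 133 without 1 of the other carriers. It was 292 with spike-in brightness as a block, 769 in the dim arrays alone, 1180 with age as a covariate and 0 without normalisation between arrays. In each of these fits 0 probe sets passed, and their smallest adjusted p was 0.121 in limma, with age as a covariate. The SE of a difference had a median of 0.36 over 5666 genes, and 149 genes differed by more than 1 log2 unit without passing. Of the 7453 probe sets, 49.3% had a lower mean in the carriers; without normalisation between arrays this share was 73.9% and the median difference -0.19. The 2 wild-type arrays differed from each other by a median of 0.50 per probe set, while wild-type 1 and hDMD mdx 1, both bright, differed by 0.20. The values below are therefore descriptions of these 6 mice, and none of the differences from wild-type passed the test.

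The carriers shared low levels of many extracellular matrix transcripts. Of 63 genes in 4 lists of collagens, collagen-processing enzymes, matrix glycoproteins and matrix proteases, 57 had a lower mean in the carriers and 6 a higher one, and their median difference was -0.60 against 0.005 over all 5666 genes. All 4 carriers lay below both wild-type arrays for 22 of the 63 (34.9%), against 244 of all genes (4.31%), a count that was 11 without normalisation between arrays. Col1a1 and Col1a2, the chains of type I collagen, Fn1 (fibronectin), Lox, which crosslinks collagen, and Serpinf1, a secreted factor that inhibits vessel growth, were among them. The lists were drawn up with results of these data known, and the counts were not tested. In whole muscle, fewer matrix-producing cells and less RNA per cell cannot be told apart.

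Promoters of 15 of these 22 genes stand in the RefSeq table used here (build GRCm38.p6, windows of 300 bases that end just inside each gene). Those of a fibrillar collagen (Col1a2), a matrix proteoglycan (Bgn) and a collagen-binding glycoprotein (Sparc) are shown because these genes of different matrix roles had no overlap and a lower level on both bright and dim arrays. Capitals mark CCAAT (or ATTGG on the other strand), TATAAA (or TTTATA) and GGGCGG (or CCGCCC).
Col1a2, chr6:4505368-4505667, plus strand: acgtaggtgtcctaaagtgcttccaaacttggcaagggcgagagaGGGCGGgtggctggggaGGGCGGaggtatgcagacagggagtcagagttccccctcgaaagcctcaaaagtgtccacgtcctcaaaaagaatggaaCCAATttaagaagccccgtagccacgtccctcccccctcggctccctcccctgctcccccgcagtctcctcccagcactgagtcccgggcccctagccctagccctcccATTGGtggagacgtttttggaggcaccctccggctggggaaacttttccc
Bgn, chrX:73483351-73483650, plus strand: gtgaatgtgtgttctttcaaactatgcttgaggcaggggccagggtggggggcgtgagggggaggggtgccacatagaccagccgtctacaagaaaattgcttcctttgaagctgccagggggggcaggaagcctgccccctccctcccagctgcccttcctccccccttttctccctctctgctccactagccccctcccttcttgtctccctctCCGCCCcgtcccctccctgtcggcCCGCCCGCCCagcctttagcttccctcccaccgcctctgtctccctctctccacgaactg
Sparc, chr11:55420031-55420330, minus strand: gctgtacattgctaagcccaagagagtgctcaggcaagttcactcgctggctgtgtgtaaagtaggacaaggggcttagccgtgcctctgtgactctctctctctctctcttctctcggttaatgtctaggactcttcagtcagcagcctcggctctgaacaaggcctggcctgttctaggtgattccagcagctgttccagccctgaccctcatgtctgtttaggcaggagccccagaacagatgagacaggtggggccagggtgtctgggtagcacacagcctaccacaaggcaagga
The Col1a2 promoter holds 2 CCAAT and 2 GGGCGG matches, that of Bgn 3 GGGCGG matches, 2 of which overlap, and that of Sparc none of the 3 motifs. Among the 15 genes, 8 had CCAAT in a listed promoter, 3 had TATAAA and 8 had GGGCGG. The shares of all 32851 single promoters in the table were 37.4%, 13.6% and 35.7%. Col6a2, Postn, Tnc and Mfap2 have 2 listed promoters each, and a match in either counted. The counts of genes and the shares of promoters are therefore unlike units. A match of letters is a description and does not show that a factor binds there.

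Col1a1 (Entrez gene 12842) stood at 9.69 and 9.81 in wild-type 1 and 2 and at 8.02, 7.76, 8.17 and 8.63 in hDMD, hDMD mdx 1, hDMD mdx 2 and hDMD mdx utrn-/-. The highest carrier was thus more than 1 log2 unit below the lower wild-type array. The difference was -1.61 ± 0.32, a 3.05-fold lower level on this scale, with -1.94 on bright and -1.54 on dim arrays. The deficient arrays, at 9.66, 9.38 and 9.26, lay above all 4 carriers. A second, dimmer Col1a1 probe set differed by -1.18 ± 0.45 with 1 carrier, hDMD mdx utrn-/-, above wild-type 2. Col1a2 (Entrez 12843) followed the same order, with 9.35 and 10.34 in wild-type and 8.40, 7.61, 8.47 and 9.01 in the carriers, a difference of -1.47 ± 0.44 that was -0.98 without wild-type 2. A second, dimmer Col1a2 probe set was higher in the carriers by 0.85 ± 0.52, so the probe sets of this gene disagree. Col3a1 (Entrez 12825), the other main fibrillar collagen, did not separate the groups: its wild-type values were 6.45 and 9.48 and its carrier values 7.35, 5.89, 7.21 and 7.68. A dimmer Col3a1 probe set had all carriers below wild-type, by -1.02 ± 0.38, and another one overlapped at -0.66 ± 0.53.

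Among the other collagens, Col4a1 (Entrez 12826), of basement membranes, was at 9.10 and 9.24 in wild-type and 8.37, 8.26, 8.10 and 7.78 in the carriers, a difference of -1.04 ± 0.29. Col5a2 (Entrez 12832), which joins type I fibrils, was at 6.04 and 7.74 against 6.03, 5.30, 5.86 and 5.78; hDMD lay only just below wild-type 1. Of 15 collagens measured, 13 had a lower mean and 6 had no overlap (40%, against 4.31% of all genes). Col6a2 and Col6a3 were the remaining 2 and were named after their values were seen. The list median was -0.66, with -0.41 on bright and -0.97 on dim arrays. Without wild-type 2 it was -0.32, with 10 of 15 lower, and without wild-type 1 it was -0.996, with 14 lower.

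**Figure D1:**
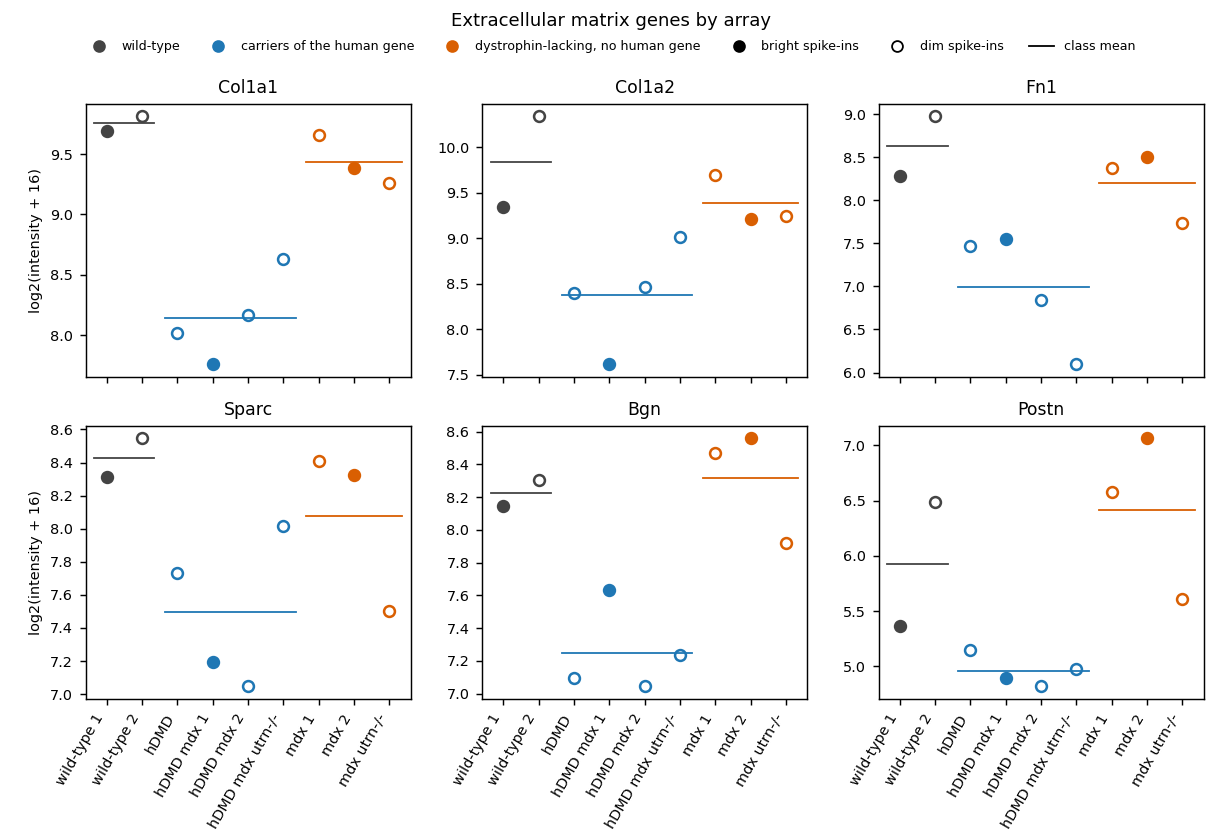
Levels of 6 matrix genes on 9 arrays (vertical axis, log2 of intensity + 16; each panel has its own range). Grey points are wild-type, blue points carriers of the human gene and orange points deficient arrays, filled where the spike-ins were bright and open where they were dim, and lines are class means. In each panel the 4 blue points lie below both grey points; Col1a1 spans 7.76 to 8.63 in the carriers and 9.69 to 9.81 in wild-type.

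Genes that process collagen gave a smaller shift. All 11 members measured had a lower mean in the carriers, with a median of -0.35, which was -0.12 with 7 of 11 lower without wild-type 2 and -0.90 without wild-type 1. Lox and Pcolce, the latter named after its values were seen, had no overlap (18.2%, against 4.31% of all genes). Lox (Entrez 16948) was at 6.52 and 5.84 in wild-type and 4.73, 4.95, 4.60 and 5.31 in the carriers, a difference of -1.28 ± 0.34, and its second probe set was lower by 0.60 ± 0.31. P4hb (Entrez 18453), a subunit of the prolyl hydroxylase, ranged from 4 to 6.70 in the carriers and overlapped wild-type at 6.58 and 7.35. P4ha2, the catalytic subunit, was at 4.93, 6.18, 6.60 and 4.39 in the carriers and 6.32 and 6.52 in wild-type, and hDMD mdx 2 was the highest of the 6.

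Matrix glycoproteins and proteoglycans were low in the carriers as well. Of 26 measured, 23 had a lower mean. No overlap was seen below wild-type for 11 (42.3%, against 4.31% of all genes) and above it for 1 (3.85%, against 5.45%). The median was -0.63, with -0.42 on bright and -0.68 on dim arrays, -0.45 without wild-type 2 and -0.64 without wild-type 1. Fn1 (Entrez 14268) was at 8.28 and 8.98 in wild-type and at 7.47, 7.55, 6.84 and 6.09 in the carriers, with hDMD mdx utrn-/- lowest, and differed by -1.64 ± 0.46. Bgn (Entrez 12111), the proteoglycan biglycan, was at 8.15 and 8.31 against 7.09, 7.63, 7.04 and 7.24, a difference of -0.98 ± 0.30. Its deficient arrays, at 8.47, 8.56 and 7.92, lay above every carrier. A dimmer Bgn probe set overlapped, at -0.26 ± 0.29.

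Sparc (Entrez 20692), a collagen-binding glycoprotein, was at 8.31 and 8.55 in wild-type and 7.73, 7.20, 7.05 and 8.02 in the carriers, where hDMD mdx utrn-/- came closest to wild-type. Postn (Entrez 50706), periostin, a matricellular protein of scars, was at 5.37 and 6.49 against 5.14, 4.89, 4.82 and 4.98, and at 6.58, 7.06 and 5.61 in the deficient arrays. Fmod (Entrez 14264), a collagen-binding proteoglycan of tendon, spread widely among the carriers, at 5.03, 7.60, 6.97 and 5.17, and was at 8.41 and 7.63 in wild-type. The other members without overlap below wild-type were Tnc, Tnxb, Thbs2, Eln, Mfap2 and Mfap5, which were named after their values were seen and differed by -0.83 to -0.61.

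Matrix proteases and their inhibitors had a median of -0.53, with 10 of 11 lower, but the median was 0 on bright and -0.79 on dim arrays. Without wild-type 2 it was -0.17, with 6 of 11 lower, and without wild-type 1 it was -0.86. Serpinf1 (Entrez 20317) was at 7.36 and 7.76 in wild-type and 6.38, 6.51, 6.34 and 6.12 in the carriers, a difference of -1.22 ± 0.29. The deficient arrays, at 6.31, 6.73 and 5.95, lay around the carriers and not, as for Col1a1, above them. Its second probe set was higher in the carriers by 0.44 ± 0.39. Mmp14 (Entrez 17387), a membrane-bound protease that cleaves collagen, was at 6.93 and 7.03 against 5.86, 6.14, 6.48 and 6.63. Mmp3, a stromelysin, overlapped, at 4.30, 4.69, 4.22 and 4.51 in the carriers and 4.60 and 5.58 in wild-type. Timp1 (Entrez 21857), an inhibitor of these proteases, was at 5.29 and 7.11 in wild-type and 5.89, 5.30, 6.10 and 6.99 in the carriers and did not separate them.

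Of the growth factor genes, Pdgfra (Entrez 18595), a receptor that marks the fibroblasts and fat precursors between fibres, was at the floor of 4 in 3 carriers and at 6.10 in hDMD mdx 1, against 6.42 and 7.06 in wild-type. Its difference was -2.22 ± 0.61, but only -0.32 on bright arrays, and a dimmer probe set was higher by 0.36 ± 0.47. Ccn2, a matricellular growth factor, was at 6.67 and 5.07 in wild-type and 4.20, 5.09, 4.68 and 4.10 in the carriers, where hDMD mdx 1 overlapped wild-type 2 by a narrow margin. Igf2 (Entrez 16002), a fetal growth factor, was at 8.30 and 5.69 in wild-type and 6.88, 6.17, 5.76 and 4 in the carriers and overlapped widely. The whole list of 19 genes had a median of -0.02, and of -0.19 without wild-type 2.

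Summed levels of the 4 fibroblast markers, which include Col1a1, Col3a1 and Pdgfra, were 11.08 and 11.67 in wild-type and 10.53 to 10.86 in the carriers. Dcn, the fourth marker, lay between 10.1 and 10.6 over all 9 arrays. Of 4 tendon markers, the 2 measured were Chad, a cartilage and tendon glycoprotein, and Fmod, which is also in the list of matrix glycoproteins. They summed to 8.92 and 8.002 in wild-type and 5.51 to 7.94 in the carriers. Scx, a transcription factor of tendon, did not follow them, at 5.89 and 5.51 in wild-type and 5.79, 4.98, 6.87 and 5.58 in the carriers, a difference of 0.10 ± 0.49 whose sign turned without wild-type 2 (-0.08) or hDMD mdx 2 (-0.25) and with the brightness block (-0.02). Of the 4 tendon and cartilage genes that passed the filter, of 12 listed, 2 had a lower and 2 a higher mean. The part of fibroblast and tendon markers in the matrix values was not tested.

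**Figure D2:**
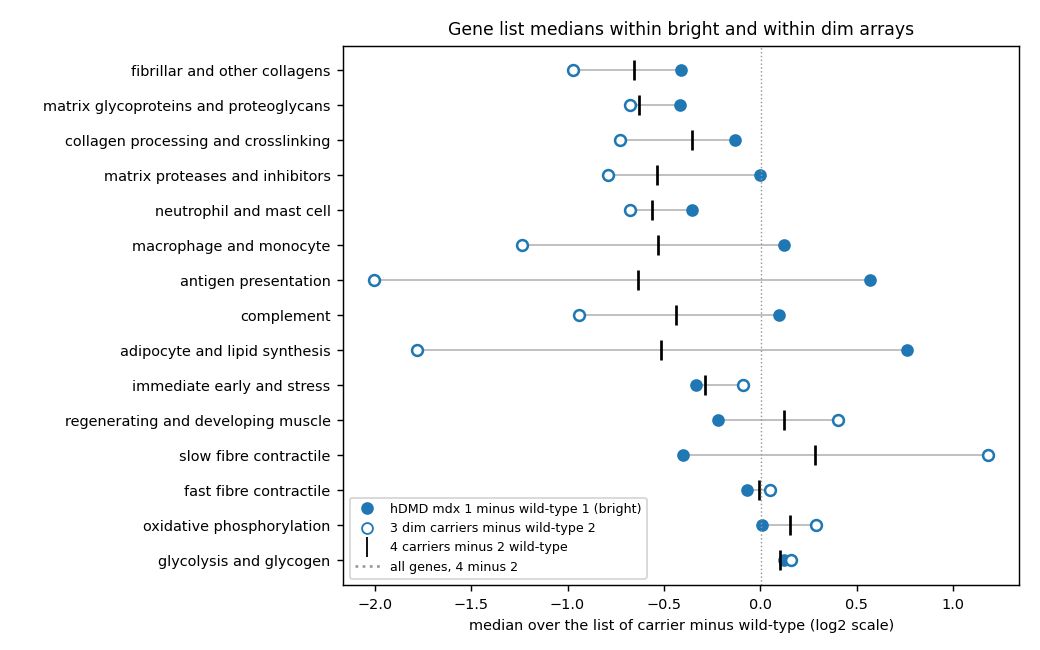
Median carrier minus wild-type difference of 15 gene lists (horizontal axis, log2 scale). Filled points compare hDMD mdx 1 with wild-type 1, open points the 3 dim carriers with wild-type 2, black ticks all 4 carriers with both wild-type arrays, and the dotted line is the median of all genes. Collagens and matrix glycoproteins lie left of 0 in both pairs, whereas antigen presentation (0.57 and -2.004) and adipocyte genes (0.76 and -1.78) lie on opposite sides.

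Inflammatory and fat cell genes also had lower means in the carriers, but here the 2 wild-type mice stood far apart. These 2 mice differ in sex and in array brightness, and the part of either was not tested. Of 20 macrophage genes, 19 had a lower mean, with a median of -0.53. A list score is the median deviation of its members from the wild-type mean. With 2 wild-type arrays, their scores are equal and opposite by construction, and only the size informs. For macrophage genes the score was -0.64 in wild-type 1, 0.64 in wild-type 2 and -0.57 to -0.46 in the carriers. The carriers therefore sat close to wild-type 1, and the median turned to 0.11, with 7 of 20 lower, without wild-type 2. The carriers were all below both wild-type arrays for 1 macrophage gene (5%, near the 4.31% of all genes). This was Ccr2, a chemokine receptor named after its values were seen.

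Ctss (Entrez 13040), a cathepsin of antigen-presenting cells, was at 6.03 and 7.20 in wild-type and 4.77, 6.14, 5.26 and 4.18 in the carriers; hDMD mdx 1 lay above wild-type 1. Lgals3 (Entrez 16854), galectin-3 of activated macrophages, was at 4.57 and 7.53 against 4.53, 4.68, 5.13 and 4.23, and Lyz2 (Entrez 17105), lysozyme, at 5.61 and 7.24 against 4.92, 5.85, 5.51 and 4. Cd68, a lysosomal membrane protein of macrophages, was at 4.72 and 6.47 against 5.39, 4.79, 4.94 and 5.08. For all 4, wild-type 2 was the highest of the 6 arrays. The 5 macrophage markers summed to 7.21 in wild-type 1, 9.14 in wild-type 2, 6.68 to 7.48 in the carriers and 8.72 to 9.68 in the deficient arrays.

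Antigen presentation genes were lower on average for all 15 members, with a median of -0.64. None was without overlap, against 4.31% of all genes below wild-type, and in a list of 15 genes a count of 0 is near that share. The median was 0.57 on bright and -2.004 on dim arrays. H2-Aa (Entrez 14960), a class II histocompatibility chain, was at 6.04 and 8.78 in wild-type and 5.79, 6.98, 4 and 5.56 in the carriers. H2-DMa, which loads peptides onto class II, was at 4 in wild-type 1 and in all 4 carriers, at 6.78 in wild-type 2 and at 5.47, 5.22 and 4.32 in the deficient arrays. Complement genes gave a median of -0.44 that turned to 0.40 without wild-type 2.

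Adipocyte and lipid synthesis genes also split the wild-type mice. Of 24, 23 had a lower mean and 0 were without overlap, against 4.31% of all genes below wild-type. The median of -0.52 was 0.76 on bright and -1.78 on dim arrays, and 0.31 without wild-type 2. Fasn (Entrez 14104), fatty acid synthase, was at 8.32 and 10.30 in wild-type and 8.52, 9.12, 7.50 and 7.03 in the carriers. Acly, which supplies its substrate, was at 7.52 and 9.16 against 7.26, 8.16, 6.71 and 5.82, and Elovl6, a fatty acid elongase, at 5.28 and 6.29 against 4.44, 5.85, 4.30 and 4.12. Scd1, a fatty acid desaturase, was at 9.66 and 11.35 against 10.43, 10.59, 9.68 and 8.84, and Adipoq (Entrez 11450), the fat cell hormone adiponectin, at 6.64 and 9.70 against 8.58, 8.68, 7.71 and 7.23. In each of these, wild-type 2 was highest, and hDMD mdx utrn-/- was the lowest carrier. The 3 adipocyte markers measured, of 5, summed to 7.94 in wild-type 1, 10.96 in wild-type 2 and 7.68 to 9.75 in the carriers, and their part in these values was not tested.

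**Figure D3:**
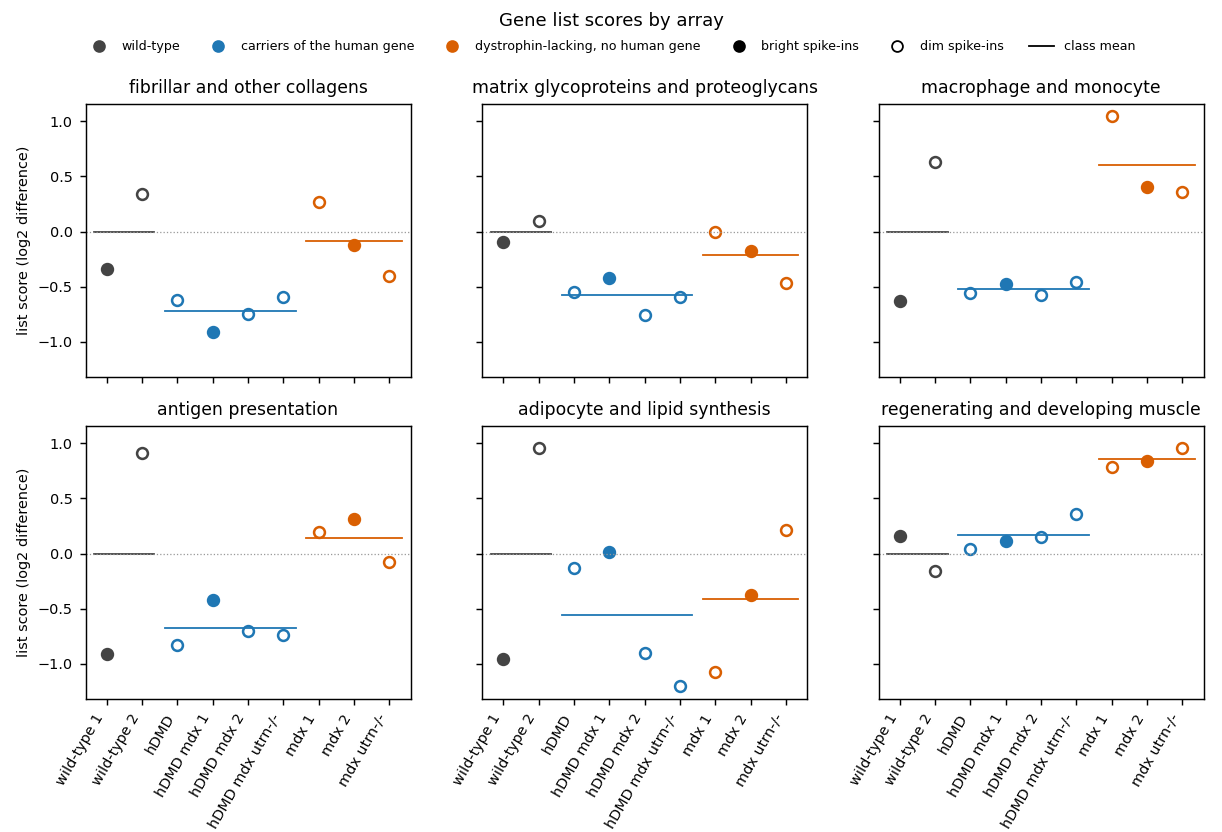
Scores of 6 gene lists on 9 arrays (vertical axis, median deviation of the list's genes from their wild-type mean, log2 scale; colours and fill as for the matrix genes). The wild-type arrays lie close together for matrix glycoproteins (-0.10 and 0.10) and far apart for antigen presentation (-0.91 and 0.91) and adipocyte genes (-0.96 and 0.96), while the regenerating muscle scores of the carriers, 0.04 to 0.36, lie below the deficient arrays, 0.79 to 0.96.

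For the calprotectin genes of neutrophils, both wild-type arrays exceeded the carriers. S100a8 (Entrez 20201), a calprotectin subunit, was at 5.74 and 5.59 in wild-type and 4, 4.27, 4.04 and 4 in the carriers, 2 of which lay at the floor. The difference was -1.59 ± 0.27, with -1.46 on bright and -1.58 on dim arrays. S100a9 (Entrez 20202), its partner, was at 5.29 and 4.89 against 4.16, 4, 4 and 4.46. In mdx 1 and mdx 2, S100a8 was at 4.20 and 4.19 and S100a9 at 4.46 and 4.05, so the low level was not particular to the carriers. In mdx utrn-/-, the youngest mouse, S100a8 and S100a9 reached 9.08 and 9.52, far above all other arrays. Of 13 neutrophil and mast cell genes, 10 had a lower mean and 5 had no overlap below wild-type (38.5%, against 4.31% of all genes), with a median of -0.56, -0.36 on bright and -0.68 on dim arrays. Without wild-type 2 the median was -0.37, with 7 of 13 lower, and without wild-type 1 it was -0.61, with 11 lower. Cma1, a mast cell protease, overlapped, at 5.31 and 6.19 in wild-type and 4.64, 5.81, 4.72 and 4.08 in the carriers. The 4 neutrophil markers summed to 6.89 and 7.00 in wild-type and 5.46 to 6.70 in the carriers, and their part in the list's values was not tested. The markers did not all go one way. Mpo, myeloperoxidase, was at 4.45 and 4.56 in wild-type and at 5.20, 4, 5.31 and 4.38 in the carriers, with hDMD and hDMD mdx 2 highest. Ngp, a granule protein, was at 5.71 and 6.23 in wild-type and at 4.60, 5.35, 4.86 and 6.54 in the carriers, where hDMD mdx utrn-/- lay above both wild-type arrays. These genes were dim in wild-type muscle, so their differences depend on the pseudocount: that of S100a8 was -4.49 with a pseudocount of 1 and -0.61 with 64.

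Genes above both wild-type arrays in all 4 carriers numbered 309 of 5666 (5.45%). Cmbl (Entrez 69574), a carboxymethylenebutenolidase homologue, was at 6.16 and 7.25 in wild-type and 8.54, 8.26, 8.39 and 8.81 in the carriers, a narrow range over 3 genotypes. Its difference was 1.80 ± 0.37, with 2.10 on bright and 1.33 on dim arrays, and the deficient arrays, at 7.32, 7.16 and 7.34, lay near wild-type 2. Elovl1 (Entrez 54325), an elongase of very long fatty acids, was at the floor in both wild-type arrays and at 6.14, 5.08, 6.73 and 5.67 in the carriers. The deficient arrays, at 5.78, 5.30 and 6.31, held as much, so here wild-type stood apart from all other mice.

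Npc1 (Entrez 18145), which moves cholesterol out of lysosomes, was at 5.79 and 6.69 in wild-type and 7.49, 7.24, 7.77 and 7.36 in the carriers, a difference of 1.22 ± 0.34 that was 0.78 without wild-type 1. Odc1 (Entrez 18263), the rate-limiting enzyme of polyamine synthesis, was at 5.39 and 6.63 against 7.63, 6.83, 7.45 and 7.30, a difference of 1.29 ± 0.41, and at 5.88, 5.74 and 5.62 in the deficient arrays. The difference of Odc1 was 0.67 without wild-type 1 and 1.92 without wild-type 2. Fbxo6 (Entrez 50762), a ubiquitin ligase subunit that binds glycoproteins, was at 6.63 and 6.41 against 7.75, 7.37, 7.79 and 7.67, and Cit, citron kinase of cell division, at 4.49 and 4.37 against 5.60, 5.51, 5.54 and 5.33. Mstn (Entrez 17700), myostatin, the inhibitor of muscle growth, was at 7.16 and 7.54 in wild-type, 8.66, 7.73, 8.28 and 7.73 in the carriers and 6.67, 6.19 and 6.13 in the deficient arrays, which lay below all 6 others.

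**Figure D4:**
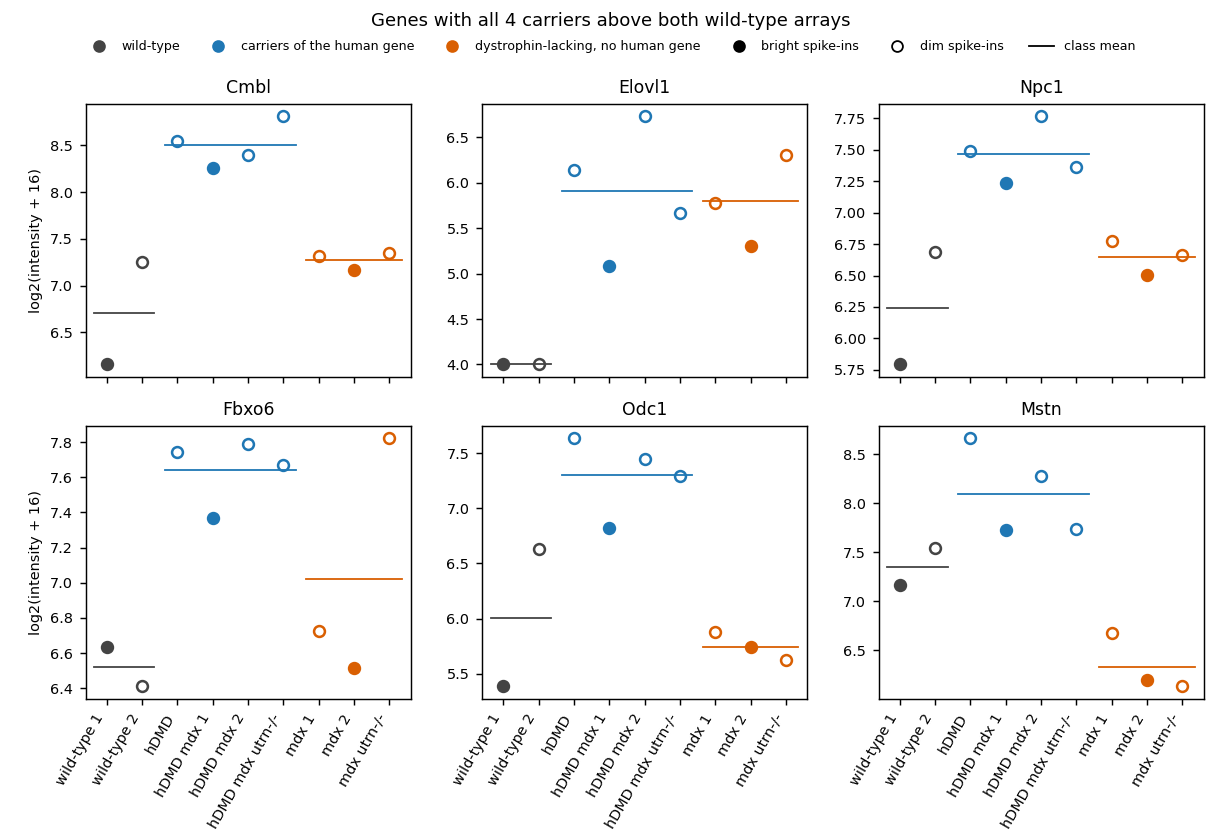
Levels of 6 genes for which all 4 carriers exceeded both wild-type arrays (vertical axis, log2 of intensity + 16; colours and fill as for the matrix genes). Cmbl reaches 8.26 to 8.81 in the carriers and 6.16 to 7.25 in wild-type, whereas both wild-type arrays are at the floor of 4 for Elovl1.

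The remaining genes with the smallest p values among those higher in every carrier are given by their differences only. Foxj1, a regulator of cilia, Cd55, which restrains complement, Acvr1b, an activin receptor, Hoxb8, a homeobox factor, and the antibody genes Vpreb1, a surrogate light chain, and 1 kappa variable gene differed by 0.89 to 1.38, and a second probe set of Vpreb1 was not higher, at -0.05 ± 0.35. From the deficient arrays, Foxj1, Cd55, Acvr1b, Hoxb8, Vpreb1 and the kappa gene differed by only 0.12 to 0.36. Their deficient means thus lay nearer to the carriers than to wild-type, and the higher level was not particular to the carriers. On the lower side, Ddit4, a stress-induced inhibitor of mTOR signalling, was at 5.93 and 5.66 in wild-type and 4.37, 4.37, 4.85 and 4 in the carriers. S1pr2, a sphingosine phosphate receptor, Tcta and Scpep1, a serine carboxypeptidase, differed by -1.65 to -0.97, and S1pr2 and Tcta were at or near the floor in 3 carriers.

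Fast fibre genes had a median difference near 0 under quantile normalisation but not under every scaling. Myh4 (Entrez 17884), the fast myosin heavy chain that dominates this muscle, was at 11.51 and 11.65 in wild-type and 11.60, 11.55, 11.55 and 11.60 in the carriers, and the sign of its difference of -0.01 turned under other scalings. The 15 fast fibre genes had a median of -0.01, which was 0.52 with 75th percentile scaling and -0.20 without normalisation. Slow fibre genes spread with the wild-type mice: Myh7 (Entrez 140781), the slow myosin heavy chain, was at 9.75 and 6.60 in wild-type and 8.30, 9.01, 7.84 and 8.27 in the carriers, all of which lay between the 2 wild-type values. Myl2, the slow regulatory light chain, at 9.46 and 6.84 against 8.78, 9.28, 8.27 and 8.67, and Tnni1, slow troponin I, at 8.63 and 5.76 against 8.20, 8.37, 7.51 and 8.28, gave the same picture. Myl3, the slow essential light chain, was at 8.01 and 7.12 against 8.39, 7.64, 8.07 and 8.46. The list score was 1.01 in wild-type 1, -1.01 in wild-type 2 and 0.09 to 0.49 in the carriers.

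Of 38 oxidative phosphorylation genes, 27 had a higher mean in the carriers and 5 had no overlap above wild-type (13.2%, against 5.45% of all genes), with a median of 0.15, which was 0.01 on bright and 0.29 on dim arrays. Ndufs4, a subunit of complex I, was at 5.00 and 5.29 in wild-type and 6.04, 5.32, 5.79 and 5.88 in the carriers, and Cox7a2, of complex IV, at 8.67 and 8.93 against 9.46, 9.15, 9.44 and 9.26. Cox4i1, another subunit of complex IV, overlapped, at 8.37 and 6.44 against 6.72, 7.93, 6.41 and 6.19. Of 25 glycolysis and glycogen genes, 19 had a higher mean and 4 had no overlap above wild-type (16%, against 5.45%), with a median of 0.10. Without wild-type 2 the median of the oxidative phosphorylation genes turned to -0.06, and without wild-type 1 it was 0.37. That of the glycolysis genes was 0.21 without wild-type 1. Without normalisation between arrays both lists turned, to -0.41 and -0.28.

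Several other lists had a lower median in the carriers that rested on 1 or the other wild-type mouse. Immediate early and stress genes, such as the Jun and Fos family and the C/EBP factors, had a median of -0.29, with 25 of 29 lower and 3 without overlap below wild-type (10.3%, against 4.31% of all genes). This median turned to 0.10 without wild-type 1 and was -0.64 without wild-type 2 and -0.44 without hDMD mdx 1. Imprinted growth genes had a median of -0.27 over 13 genes, which was 0.005 without wild-type 2 and -0.13 without wild-type 1. T and B lymphocyte genes had one of -0.18 over 13 genes, which turned to 0.44 without wild-type 2 and was -0.77 without wild-type 1. Both of these lists had 0 genes without overlap, against 4.31% of all genes below wild-type and 5.45% above it. The other lists had medians nearer to 0. Proteasome subunits (28 genes) had a median of 0.06, cytosolic ribosomal proteins (27 genes) of -0.10, heat shock genes (22 genes) of -0.13, muscle atrophy genes (18 genes) of -0.14, cell cycle genes (19 genes) of 0.06 and endothelial genes (19 genes) of 0.01. Citric acid cycle, fatty acid oxidation, calcium handling, creatine and adenylate kinase and circadian genes had medians between -0.04 and 0.09. Without 1 or the other wild-type mouse, the medians of these lists lay between -0.37 and 0.25.

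Genes of the dystrophin complex gave no common direction, 7 of 16 being higher and 9 lower with a median of -0.14, which was -0.04 without wild-type 1. None of the 16 was without overlap, against 4.31% of all genes below wild-type and 5.45% above it. Sgca (Entrez 20391), alpha-sarcoglycan of the complex, was at 8.26 and 8.21 in wild-type and 8.68, 8.16, 8.73 and 9.21 in the carriers. Dag1 (Entrez 13138), dystroglycan, which binds laminin outside the fibre, was at 8.33 and 7.65 against 7.57, 7.98, 7.76 and 8.03, Lama2, that laminin's muscle chain, at 6.84 and 6.44 against 6.70, 6.36, 6.23 and 5.43, and Itga7, the laminin-binding integrin, at 6.91 and 4.99 against 5.36, 6.27, 4 and 4.75. Sgcb, Sgcd, Sgce, Sspn and Dtna differed by -0.36 to 0.41. The Dmd probe set was at 4.95 and 4.49 in wild-type and 4.55, 4.38, 4.55 and 4 in the carriers, and the Utrn probe set at 4.96 and 5.73 against 5.18, 4.33, 6.16 and 5.28; hDMD mdx utrn-/-, which lacks utrophin by its label, was at 5.28 and not the lowest. These probe sets thus check neither the human gene nor the utrophin deletion.

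Several regeneration genes of the carriers overlapped wild-type and lay below the deficient mice. Myl4 (Entrez 17896), the embryonic and atrial myosin light chain, was at 5.89 and 5.38 in wild-type, 5.65, 5.82, 6.21 and 6.34 in the carriers and 8.66, 8.26 and 8.05 in the deficient arrays. In a fit of 3 classes over the 9 arrays, 3 of 7453 probe sets (0.0403%) distinguished the carriers from the deficient arrays, all lower in the carriers, and 521 had an unadjusted p under 0.05. Both probe sets of Myl4 were among them, lower by 2.32 ± 0.28 (adjusted p = 0.0134 in limma) and 3.12 ± 0.24 (adjusted p = 0.000638 in limma). The third, which has no gene name here, was at 4 to 4.53 in the carriers and 6.84 to 7.56 in the deficient arrays and differed by -2.88 ± 0.32 (adjusted p = 0.00892 in limma). Its call ended without hDMD (adjusted p = 0.0601 in limma), without mdx 1 (0.0572) and with a pseudocount of 1 (0.295), and was 0.0485 or less in limma without each other mouse. The same fit gave a Myl4 difference of 0.37 between carriers and wild-type, whose arrays overlapped. Both differences use the same 4 carriers. The larger Myl4 call held with a pseudocount of 1 and with each mouse left out (adjusted p up to 0.0163 in limma). The smaller one ended without hDMD (adjusted p = 0.0763 in limma), hDMD mdx 2 (0.0513), mdx 1 (0.101), mdx 2 (0.0511) or mdx utrn-/- (0.0517) and with a pseudocount of 1 (0.259). The count of calls was 1 without hDMD or mdx 1, 7 without hDMD mdx 1 and 8 without either wild-type array.

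Myh3, Chrna1 and Igf2 had the same order as Myl4, with carriers that overlapped wild-type and lay below every deficient array, and did not pass. Myh3 (Entrez 17883), the embryonic myosin heavy chain, was at 4.58 and 4 in wild-type, 4.28, 4.40, 4.27 and 4.40 in the carriers and 6.81, 5.72 and 7.16 in the deficient arrays. Chrna1 (Entrez 11435), the alpha chain of the muscle receptor for acetylcholine, was at 6.16 and 4.47 in wild-type, 5.19, 5.69, 4.77 and 4.82 in the carriers and 7.13, 7.81 and 6.79 in the deficient arrays. Igf2 reached 9.75, 8.72 and 10.73 in the deficient arrays, and every carrier lay below them. Actc1 (Entrez 11464), the cardiac actin made by young fibres, had another order: it was at 10.63 and 10.46 in wild-type, 10.38, 9.41, 10.26 and 10.19 in the carriers and 10.92, 10.35 and 9.55 in the deficient arrays. All carriers lay below both wild-type arrays and overlapped the deficient ones, on its second probe set too. The list of 24 regenerating and developing muscle genes had a median of 0.12 against wild-type, which turned to -0.13 without wild-type 2 and was 0.39 without wild-type 1, and one of -0.76 against the deficient arrays.

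**Figure D5:**
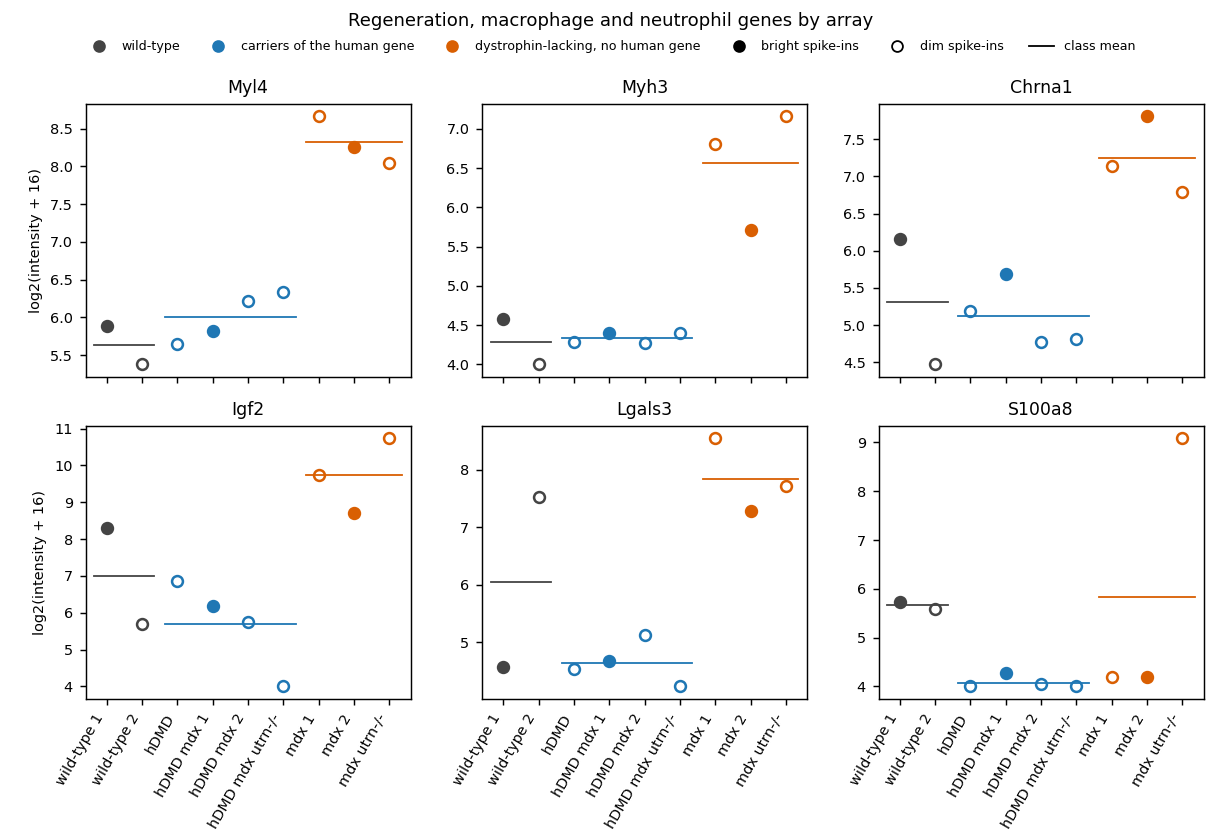
Levels of 6 genes on 9 arrays (vertical axis, log2 of intensity + 16; colours and fill as for the matrix genes). Myl4 lies at 5.38 to 6.34 in the wild-type and carrier arrays and at 8.05 to 8.66 in the deficient arrays, Lgals3 is high in wild-type 2 as well as in the deficient arrays, and S100a8 reaches 9.08 in mdx utrn-/-.

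The difference from wild-type and that from the deficient arrays can be set side by side. The 63 matrix genes had a median of -0.60 for the carriers against wild-type and of -0.46 against the deficient arrays, and both values rest on the same 4 carriers. For Col1a1 the 2 differences were -1.61 ± 0.32 and -1.29 ± 0.26, and for Myl4 0.37 ± 0.33 and -2.32 ± 0.28. Macrophage genes had a median of -0.53 against wild-type, which held only with wild-type 2, and of -0.82 against the deficient arrays.

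The median SD per gene was 0.39 over the 4 carriers and 0.34 over the 2 wild-type arrays. Set against the wild-type mean, hDMD mdx 1 had 52 genes more than 1 log2 unit higher and 92 more than 1 lower. These counts were 165 and 238 in hDMD, 237 and 322 in hDMD mdx 2, and 424 and 549 in hDMD mdx utrn-/-. In that order the arrays had 1.92%, 3.21%, 3.35% and 5.21% of their values at the floor, and hDMD mdx 1 was the one bright array, so genotype, age and array brightness cannot be told apart among the carriers. With 1 array per genotype in 2 of the 3 carrier genotypes, no test between them was made.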

How the data were processed

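The 9 arrays are Affymetrix U74Av2, and the values are the deposited probe set intensities on a linear scale. Per the labels' protocols, RNA was extracted with Trizol and RNeasy and labelled with biotin. No source used here gives the expression measure or scaling, and 19.4% to 29.9% of values per array were at or below 0. Intensities of 12422 probe sets that are not controls were quantile normalised over 9 arrays, values below 0 were set to 0, and log2 was taken with a pseudocount of 16, which understates differences of dim genes. Probe sets with a mean above the 40th percentile were kept (7453, of 5666 named genes). Gene names come from the platform annotation, updated through Entrez identifiers.

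Carriers and wild-type were compared in limma 3.58.1 (R 4.3.3; lmFit, eBayes) over 6 arrays (4 residual degrees of freedom). A fit of 3 classes over 9 arrays (6 degrees of freedom) gave carriers against deficient arrays. Tests were two-sided with Benjamini-Hochberg adjustment over 7453 probe sets and a threshold of 0.05, and the scripts were tested on simulated data. The number of arrays limits the precision.

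Named genes were 12 per direction with no overlap and the smallest p, a fixed set of muscle, matrix and inflammatory genes, and the 3 largest differences of each list described. Most of the other lists, of 38, are given by their medians only. The members and lists were chosen with earlier results of these data known.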

Additional observations from a re-analysis of the deposited data

Results flagged for a closer look

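Among the 4 carriers, hDMD mdx 1 stood far from the other 3 for several genes near the floor, judged by its gap to the nearest carrier over the range of all 4. S100a8 was at 4.27 against 4 to 4.04, S1pr2 at 4.59 against 4, Pdgfra at 6.10 against 4, Tcta at 5.54 against 4 to 4.02, and H2-DMa at 4.0003 against 4, a gap without size. The Y-linked Eif2s3y stood at 5.98 against 5.31 to 5.37, and the score of the sex-linked list, which rests on this 1 gene, at 1.31 against 0.64 to 0.69. hDMD mdx 1 is the only bright array among the carriers and comes from the oldest mouse, and the part of either was not tested. The tendon and cartilage score was -1.21 in hDMD against -0.65 to -0.55 in the other carriers, and the chemokine score was -0.20 in hDMD mdx utrn-/- against 0.10 to 0.13. The rule flags about 1 in 20 groups of 4 independent, normally distributed values, and it flagged 9 of the 110 genes and list scores examined. These 2 rates cannot be compared. Where the other 3 carriers lie at the floor, as for S1pr2, Pdgfra and H2-DMa, any gap is flagged whatever its size. Eif2s3y and the sex-linked score are the same values flagged again.

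The effects of the carrier and the deficient genotypes against wild-type differed for Myl4, by -2.32 on its brighter probe set, as tested by the difference between the 2 classes in limma.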

How the results depend on the processing

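Over 72 named genes there were 13 alternatives that kept all mice or the dim arrays alone. In these and with arrays left out, 49 genes never changed the sign of their difference. The bright pair, hDMD mdx 1 minus wild-type 1, was not among the alternatives, and some of the 49 genes turned there. Ctss was at 6.03 in wild-type 1 and 6.14 in hDMD mdx 1, and Lyz2 at 5.61 and 5.85. Mmp3, Fasn, Acly, Elovl6, H2-Aa and Cma1 were also higher in hDMD mdx 1 than in wild-type 1. Without normalisation between arrays the differences of Tnni1, Myl2, Myl3, Sgca, Cox7a2, Myh3, Myl4, Myh7 and Scx were -0.0098, -0.17, -0.090, -0.14, -0.0059, -0.020, -0.057, -0.63 and -0.34. That of Myh4 was 0.0051 with quantiles over 6 arrays, 0.58 with 75th percentile scaling, 0.0006 with 1 mean per genotype and 0.0069 with age as a covariate. Age turned Utrn to 0.44, Timp1 to 0.39 and Myh7 to -0.22, the brightness block turned Chrna1 to 0.084 and Scx to -0.024, and the dim arrays alone gave Dag1 0.13 and Chrna1 0.45. With each mouse left out in turn, the signs of these genes turned: Adipoq -1.65 to 1.41, Cd68 -1.42 to 0.33, Chrna1 -1.05 to 0.65, Col3a1 -2.45 to 0.58, Cox4i1 -1.55 to 0.37, Dag1 -0.50 to 0.18, H2-DMa -2.78 to 0.0001, Igf2 -2.59 to 0.017, Itga7 -1.81 to 0.10, Lgals3 -2.89 to 0.075, Myh3 -0.24 to 0.34, Myh4 -0.075 to 0.061, Myh7 -1.39 to 1.76, Myl2 -0.71 to 1.91, Scd1 -1.47 to 0.22, Scx -0.25 to 0.38, Timp1 -1.05 to 0.78, Tnni1 -0.54 to 2.33 and Utrn -0.50 to 0.27. The cause of these changes was not tested.

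No alternative gave a probe set that passed between carriers and wild-type in limma. Genes with no overlap numbered 9 higher and 11 lower without normalisation, 1767 and 1477 in the dim arrays alone, where fewer arrays can overlap, and 377 to 1180 higher and 313 to 1244 lower with 1 mouse left out. Calls between carriers and deficient arrays numbered 1 with a pseudocount of 1, 5 with 64, 14 with the brightness block and 1 to 8 with 1 mouse left out. No paired analysis was made because each array came from a different mouse and the labels name no pairs. With 2 wild-type mice, both younger than every carrier and 1 of them on a bright array, the comparison cannot separate genotype from age or strain. Sex limits it too, because a comparison of males alone rests on 1 wild-type mouse, wild-type 2.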
